A study of Mus musculus with 6 samples.

Results

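The 6 genes described here are the metallothionein genes Mt1, Mt2 and Mt3, the metal-sensing transcription factor gene Mtf1, the zinc exporter gene Slc30a1 and the metal importer gene Slc39a14. They were taken by symbol from a deposited table of 54884 gene entries, and each of the 6 had 1 entry. Expression was measured by sequencing of poly(A) RNA in cultured neural stem cells, which divide to renew themselves and can form neurons and glia. The cells came from the hippocampus of C57BL/6J mouse embryos at day 14 and were used between the third and the eighth passage. A lentivirus carried either a control siRNA, circCon (3 control libraries), or an siRNA against circHIPK2 (3 siRNA libraries), a circle of RNA that the Hipk2 gene gives rise to. All 6 libraries were thus of lentivirus-transduced cells, and untransduced cells were not analysed here. The labels do not say whether replicates are separate cultures, and p-values thus weigh differences against a spread between libraries that may be only technical.

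Metallothioneins are small cytosolic proteins that hold zinc and copper through clusters of cysteine side chains. Free zinc activates the factor MTF-1, which binds metal response elements and switches on Mt1, Mt2 and Slc30a1. Proteins of the SLC30 (ZnT) family move zinc out of the cytosol, to the outside or into organelles, and proteins of the SLC39 (ZIP) family move it in. In the brain Mt1 and Mt2 are known for expression in astrocytes and for induction by metals, glucocorticoids and inflammatory signals. Mt3 is known as the brain form, which is little induced by metals.

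The coding sequences of the 3 expressed metallothioneins show what makes these proteins metal binders. They are given 5′ to 3′ from GENCODE M21 transcripts (GRCm38), with the codons TGC and TGT, which encode cysteine, in capitals.
Mt1: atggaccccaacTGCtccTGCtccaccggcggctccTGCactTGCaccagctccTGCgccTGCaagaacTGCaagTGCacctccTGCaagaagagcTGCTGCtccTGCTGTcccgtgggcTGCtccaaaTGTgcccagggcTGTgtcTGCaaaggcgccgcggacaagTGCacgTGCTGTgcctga
Mt2: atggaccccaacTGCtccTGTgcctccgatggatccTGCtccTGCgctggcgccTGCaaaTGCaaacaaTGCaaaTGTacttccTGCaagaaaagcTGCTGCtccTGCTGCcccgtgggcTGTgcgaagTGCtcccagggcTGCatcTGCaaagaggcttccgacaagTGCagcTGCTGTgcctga
Mt3: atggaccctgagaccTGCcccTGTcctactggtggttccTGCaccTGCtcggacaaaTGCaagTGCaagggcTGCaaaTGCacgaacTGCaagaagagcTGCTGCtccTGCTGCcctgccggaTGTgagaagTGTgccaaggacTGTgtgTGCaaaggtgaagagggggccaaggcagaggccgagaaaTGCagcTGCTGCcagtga
Each holds 20 cysteine codons, among 61 codons before the stop in Mt1 and Mt2 and 68 in Mt3. Cysteine thus makes up 32.8% of the codons of Mt1 and Mt2 and 29.4% of those of Mt3. The coding sequences of Mt1 and Mt2 are identical at 79.6% of aligned bases, those of Mt1 and Mt3 at 61.6% and those of Mt2 and Mt3 at 67.6%. The longest run shared without a mismatch is 20 bases between Mt1 and Mt2, 27 between Mt1 and Mt3 and 20 between Mt2 and Mt3. The sources used here do not give how reads that match more than 1 of them were counted.

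Stretches before the annotated starts of Mt1 and Mt2 are shown because MTF-1 switches on both genes. RefSeq promoters (GRCm38.p6, both genes on the + strand) were found for 5 of the 6 genes, all but Slc39a14. The 7-base cores TGCACNC and TGCGCNC of the metal response element were searched on both strands in the 250 bases before each start, and matches are in capitals, the reverse-strand match in Mt2 as it reads on the strand shown. The stretch of Mt1 lies at chr8:94178839-94179081, ending before its first annotated exon, and that of Mt2, across which the antisense noncoding RNA Gm45774 is annotated, at chr8:94172368-94172617.
Mt1: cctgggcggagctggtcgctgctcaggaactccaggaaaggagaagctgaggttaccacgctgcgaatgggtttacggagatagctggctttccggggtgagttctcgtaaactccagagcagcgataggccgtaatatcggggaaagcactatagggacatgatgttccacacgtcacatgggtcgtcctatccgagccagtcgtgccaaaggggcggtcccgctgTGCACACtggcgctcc
Mt2: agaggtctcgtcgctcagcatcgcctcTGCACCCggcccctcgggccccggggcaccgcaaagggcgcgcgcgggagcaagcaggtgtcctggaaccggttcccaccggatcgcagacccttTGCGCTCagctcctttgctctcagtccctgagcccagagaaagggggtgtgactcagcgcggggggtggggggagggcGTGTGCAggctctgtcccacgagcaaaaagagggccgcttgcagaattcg
Mt2 held 3 matches, Mt1 1 and Slc30a1 1, while Mt3 and Mtf1 held 0. Of 27025 genes with a promoter of this length, 21.3% held at least 1 match and 1.28% at least 3. With the next 50 bases added, Mt1 held 3, Mt2 4, Slc30a1 2 and Mt3 1, and 2.00% of genes held at least 3. The count of a gene, as for Mt1, thus depends on where the window ends. The stretch printed for Mt1 leaves out the matches gained with those 50 bases, so it does not hold all matches near its start. A match describes the sequence and was not tested for binding.

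The values are FPKM, which divides a gene's fragments by its length in kb and by the library's mapped fragments in units of 1000000. The steps between low values put the depth of the libraries at 18430000 to 21900000 fragments, so that a single fragment on 1 kb of transcript gives 0.0457 to 0.0543 FPKM. The values are per gene symbol, and the level of the circle was not analysed here. Its host gene Hipk2 ranged over the controls from 30.9 to 36.9 FPKM and over the siRNA libraries from 23.8 to 28.8 FPKM. On these deposited values 22.1% of all genes tested likewise lay entirely lower with the siRNA, and no fit of Hipk2 is given here. Neural stem cell markers were present, with summed levels of 12 genes between 1508 and 2273 FPKM, and so were astrocyte and oligodendrocyte lineage markers (923 to 1509 and 623 to 847 FPKM). Microglial, endothelial, fibroblast and erythroid markers (26 genes in all) lay below 0.5 FPKM in every library. Liver markers differed between the groups, with control sums from 40.3 to 65.3 FPKM against 2.12 to 2.23 FPKM under siRNA. Of the 12 liver genes 10 reached the filter used for testing, 9 of them only through the controls, so their count carries no weight. These 10 fell, where 0.139% of all genes were called lower, among them Alb, serum albumin, from a mean of 19.1 FPKM to 0.0714 FPKM. Entries of the ribosomal RNA locus, 9 in number with those that rise with it, made up 0.321% to 0.580% of the summed FPKM of a control and 3.24% to 19.9% of that of an siRNA library. Liver also expresses Mt1, Mt2 and Slc39a14, and the part of liver transcripts or of the ribosomal RNA share in the values below was not tested.

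The 6 genes spanned more than 2 orders of magnitude in level. FPKM is scaled by length, so levels were compared between genes, within the limit that the length used is not known. Mt1 had the highest mean over the 6 libraries, 438 FPKM, rank 80 among all entries, followed by Mt3 with 372 FPKM (rank 100) and Mt2 with 87.2 FPKM (rank 640). Slc39a14 had 10.3 FPKM, Mtf1 4.90 FPKM and Slc30a1 1.62 FPKM. Mt1 and Mt3 overlapped in range (381 to 544 and 293 to 446 FPKM), and Mt1 was the higher in 5 of 6 libraries, an order that another length could turn. The other neighbours in this order had separate ranges. Mt4, the form known from stratified epithelium and adjacent to the others in the same cluster, was listed at 0 in all 6 libraries. Mt1, Mt2 and Mt3 together took between 0.167% and 0.223% of all FPKM. Their transcripts are short, with annotated coding forms from 388 to 1085 nt, and the sources used here do not give which length the values were divided by.

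The comparison of circHIPK2 siRNA with control asks which of these transcripts differ when the circle is targeted. None of the 6 passed the test, 1 of them (Mt3) had an unadjusted limma p below 0.05, and in none did the 3 siRNA libraries lie entirely above or below the 3 controls on the values as deposited. Among all 13702 genes tested 0.255% were called (a limma p below 0.05 after Benjamini-Hochberg, BH, adjustment over all of them), 0.117% higher and 0.139% lower. At an unadjusted limma p below 0.05, 15.5% of all genes were lower and 1.83% higher. On FPKM as deposited 24.7% of all genes had groups that did not overlap, 22.1% entirely lower with the siRNA and 2.65% entirely higher. The median log2 fold change of all genes was −0.12 and that of the 6 was −0.01. Log2 fold changes here are siRNA minus control on the log2(FPKM + 1) scale, which understates changes of weakly expressed genes. Median-of-ratios scaling, which sets the middle gene level between libraries, brought the median of all genes to −0.00095 and that of the 6 to 0.09. On that scale 10.1% of all genes lay entirely higher and 10.1% entirely lower. With the ribosomal RNA locus entries removed and columns rescaled, the median of all genes was 0.06 and that of the 6 was 0.17. Those entries take more of the siRNA libraries, so this setting raises siRNA values relative to control by construction.

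**Figure D1:**
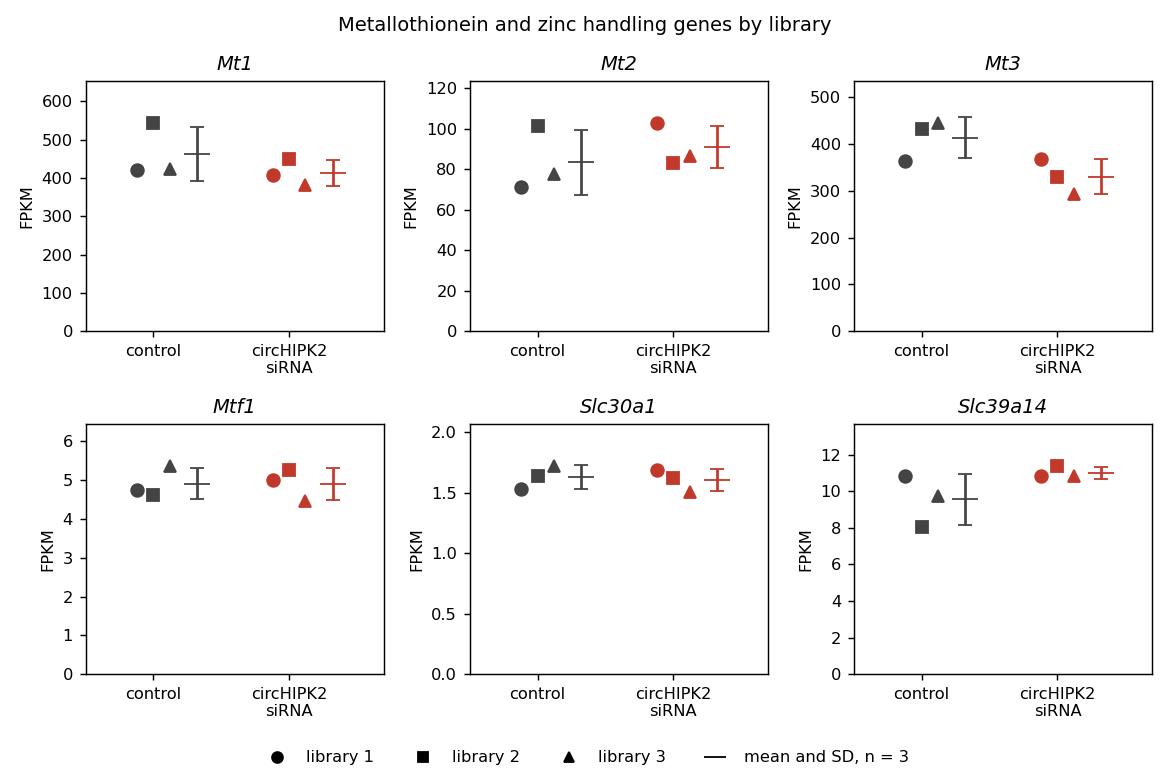
FPKM of the 6 genes (y axis, from 0) in the 3 control and 3 circHIPK2 siRNA libraries (x axis). Symbols mark libraries 1 to 3, and bars the mean and SD (n = 3). In each panel the groups overlap, from Mt3 at 414 and 330 FPKM in the group means to Mtf1 at 4.90 and 4.89 FPKM.

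Mt3, the brain metallothionein, had the lowest fold change of the 6. In the order of libraries 1 to 3, as throughout below, the controls had 363, 433 and 446 FPKM and the siRNA libraries had 368, 329 and 293 FPKM. Control library 1 lay just below siRNA library 1, and the other 2 controls lay above all siRNA libraries. The group means were 414 ± 44.3 FPKM for control and 330 ± 37.4 FPKM for siRNA (SD, n = 3). The log2 fold change was −0.33 (SE 0.14, 95% confidence interval −0.64 to −0.02) and did not pass (limma with BH, adjusted p = 0.275). Its unadjusted limma p was 0.0416, and at an unadjusted p below 0.05 15.5% of all genes were lower and 1.83% higher. The exact two-sided permutation p was 0.2, where 3 against 3 libraries allow no less than 0.1. With median-of-ratios scaling the log2 fold change was −0.19 (limma with BH, adjusted p = 0.551), and with quantile normalization or without the ribosomal RNA locus entries it was −0.12.

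Mt1, the most abundant metallothionein, had control values of 421, 544 and 423 FPKM, against 407, 450 and 381 FPKM under siRNA. Control library 2 was the highest of all, and siRNA library 2 lay above the other 2 controls. The group means were 463 ± 70.2 FPKM for control and 413 ± 34.9 FPKM for siRNA (SD, n = 3), with a log2 fold change of −0.16 (SE 0.14, 95% confidence interval −0.48 to 0.17). It did not pass (limma with BH, adjusted p = 0.562; exact two-sided permutation p = 0.4). After median-of-ratios scaling the siRNA libraries lay between 427 and 437 and the controls at 395, 535 and 393. The sign turned to 0.07 with quantile normalization and to 0.05 without the ribosomal RNA locus entries. In the latter setting the median of all genes was 0.06, so Mt1 lay below it.

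Mt2, its neighbour and close relative, had control values of 71.1, 102 and 77.6 FPKM, against 103, 83.3 and 86.6 FPKM under siRNA. Control library 2 and siRNA library 1 were the high ones, and the remaining controls were the lowest. The group means were 83.4 ± 16.0 FPKM for control and 90.9 ± 10.5 FPKM for siRNA (SD, n = 3), with a log2 fold change of 0.13 (SE 0.15, 95% confidence interval −0.21 to 0.48). It did not pass (limma with BH, adjusted p = 0.645; exact two-sided permutation p = 0.5). The log2 fold change was 0.27 with median-of-ratios scaling, 0.32 with quantile normalization, 0.34 without the ribosomal RNA locus entries and 0.30 with library weights. Gm45774, annotated antisense across Mt2, had between 4.46 and 5.71 FPKM, and without a stated use of strand in counting the reads of the pair cannot be told apart.

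Mt1 was several times Mt2 in every library, at control ratios of 5.92, 5.36 and 5.46, against 3.96, 5.40 and 4.40 under siRNA. The 2 lowest ratios were those of siRNA libraries 1 and 3, while siRNA library 2 lay just above control library 2. Mt3 was between 0.796 and 1.05 times Mt1 in the controls and between 0.732 and 0.903 times with the siRNA, and these ranges overlap. The 3 metallothioneins had control sums from 855 to 1078 FPKM, against 761 to 878 FPKM under siRNA.

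Mtf1, which encodes the zinc-sensing activator of Mt1 and Mt2, had control values of 4.74, 4.61 and 5.35 FPKM, against 4.98, 5.24 and 4.45 FPKM under siRNA. The highest value was a control and the lowest an siRNA library, with the others interleaved. The log2 fold change was −0.0029 (SE 0.10, 95% confidence interval −0.24 to 0.24; limma with BH, adjusted p = 0.991), the smallest of the 6. The exact two-sided permutation p was 1. After median-of-ratios scaling the controls lay between 4.45 and 4.97 and the siRNA libraries between 4.99 and 5.25, entirely higher, as did 10.1% of all genes. That change, 0.11 on the log2 scale, did not pass (limma with BH, adjusted p = 0.563), so the sign for Mtf1 depends on the scaling.

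Slc30a1, the zinc exporter ZnT1 of the plasma membrane, had control values of 1.53, 1.64 and 1.72 FPKM, against 1.69, 1.62 and 1.50 FPKM under siRNA. The libraries interleaved throughout. The log2 fold change was −0.01 (SE 0.11, 95% confidence interval −0.25 to 0.23; limma with BH, adjusted p = 0.957). With median-of-ratios scaling it was 0.07. The exact two-sided permutation p was 0.7. Slc30a1 stood among the last 697 rows of the table, which follow the alphabet and hold all 393 entries written with more than 6 decimals. In 3 of its 6 values a seventh decimal appears, as in a mean of 2 values of 6 decimals, so its level may be such a mean. The sources used here do not give how rows of 1 symbol were joined.

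Slc39a14, the importer ZIP14 of zinc, iron and manganese, had the highest fold change of the 6. It had control values of 10.8, 8.05 and 9.76 FPKM, against 10.8, 11.4 and 10.8 FPKM under siRNA. Control library 1 lay within the siRNA range, and the other 2 controls lay below it. The group means were 9.55 ± 1.41 FPKM for control and 11.0 ± 0.321 FPKM for siRNA (SD, n = 3), with a log2 fold change of 0.19 (SE 0.12, 95% confidence interval −0.07 to 0.46). It did not pass (limma with BH, adjusted p = 0.393; exact two-sided permutation p = 0.3). After median-of-ratios scaling the controls lay between 7.93 and 10.2 and the siRNA libraries between 11.0 and 12.1, entirely higher, as did 10.1% of all genes (log2 fold change 0.32, limma with BH, adjusted p = 0.256).

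Slc30a1 and Slc39a14 belong to families of 10 Slc30 and 14 Slc39 genes, each of which had an entry. Of these 24, 17 reached the mean of 1 FPKM needed for the test, and 0 were called (limma with BH, adjusted p between 0.188 and 0.957), against 0.255% of all genes. At an unadjusted limma p below 0.05 there were 5, all lower, where 15.5% of all genes were lower and 1.83% higher. With the siRNA 6 of the 17 lay entirely lower and 1 entirely higher, against 22.1% and 2.65% of all genes. After median-of-ratios scaling 2 lay entirely lower and 3 entirely higher, against 10.1% each way. The family median was −0.15, against −0.12 for all genes. The 7 genes below the filter were Slc30a2, Slc30a3, Slc30a8, Slc39a2, Slc39a4, Slc39a5 and Slc39a8. They include Slc30a3, the zinc transporter of synaptic vesicles, and Slc30a8, that of insulin granules, both below 0.03 FPKM in every library.

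Among the exporters the most abundant was Slc30a5, which loads zinc into the secretory pathway, with group means of 13.3 ± 1.05 (control) and 10.7 ± 0.953 FPKM (siRNA; SD, n = 3). Its log2 fold change was −0.29 (limma with BH, adjusted p = 0.238), and all siRNA libraries lay below all controls, which no longer held after median-of-ratios scaling. Slc30a9, of mitochondria, had 11.3 ± 0.302 and 10.7 ± 1.27 FPKM. Slc30a6, the partner of Slc30a5, had 5.08 ± 1.04 and 4.84 ± 0.752 FPKM, and Slc30a7, of the Golgi, 4.76 ± 0.174 and 4.21 ± 0.418 FPKM. Slc30a4, of vesicles, had 3.53 ± 0.0360 and 3.73 ± 0.105 FPKM and was the gene of these families that lay entirely higher on both scales, although its log2 fold change was only 0.06 (limma with BH, adjusted p = 0.734). Its row stands in the same alphabetical end of the table as that of Slc30a1. Slc30a10, a manganese exporter, ranged over the controls from 1.77 to 3.29 FPKM and over the siRNA libraries from 0.741 to 2.28 FPKM.

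Among the importers Slc39a12 (ZIP12), known for expression in the brain, had the lowest fold change. It had control values of 8.69, 12.3 and 8.62 FPKM, against 7.46, 5.93 and 4.45 FPKM under siRNA. All siRNA libraries lay below all controls, with siRNA library 3 the lowest. The log2 fold change was −0.65 (SE 0.19, 95% confidence interval −1.08 to −0.23) and did not pass (limma with BH, adjusted p = 0.188), and with median-of-ratios scaling it was −0.53. Slc39a6 and Slc39a10, which encode ZIP proteins known to join into 1 complex, had log2 fold changes of −0.33 (limma with BH, adjusted p = 0.203) and −0.34 (limma with BH, adjusted p = 0.264). Slc39a6 lay entirely lower on both scales, with 23.6 ± 2.13 and 18.6 ± 1.32 FPKM (SD, n = 3), and Slc39a10 overlapped. Slc39a7, which releases zinc from the endoplasmic reticulum, was the most abundant importer, at 58.3 ± 6.64 and 55.9 ± 10.0 FPKM. Slc39a1, of the plasma membrane, had 47.5 ± 1.43 and 48.1 ± 4.49 FPKM, and neither of these 2 passed (limma with BH, adjusted p of 0.819 and 0.949). Slc39a8, the close relative of Slc39a14, ranged over the controls from 0.332 to 0.579 FPKM and over the siRNA libraries from 0.119 to 0.361 FPKM.

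**Figure D2:**
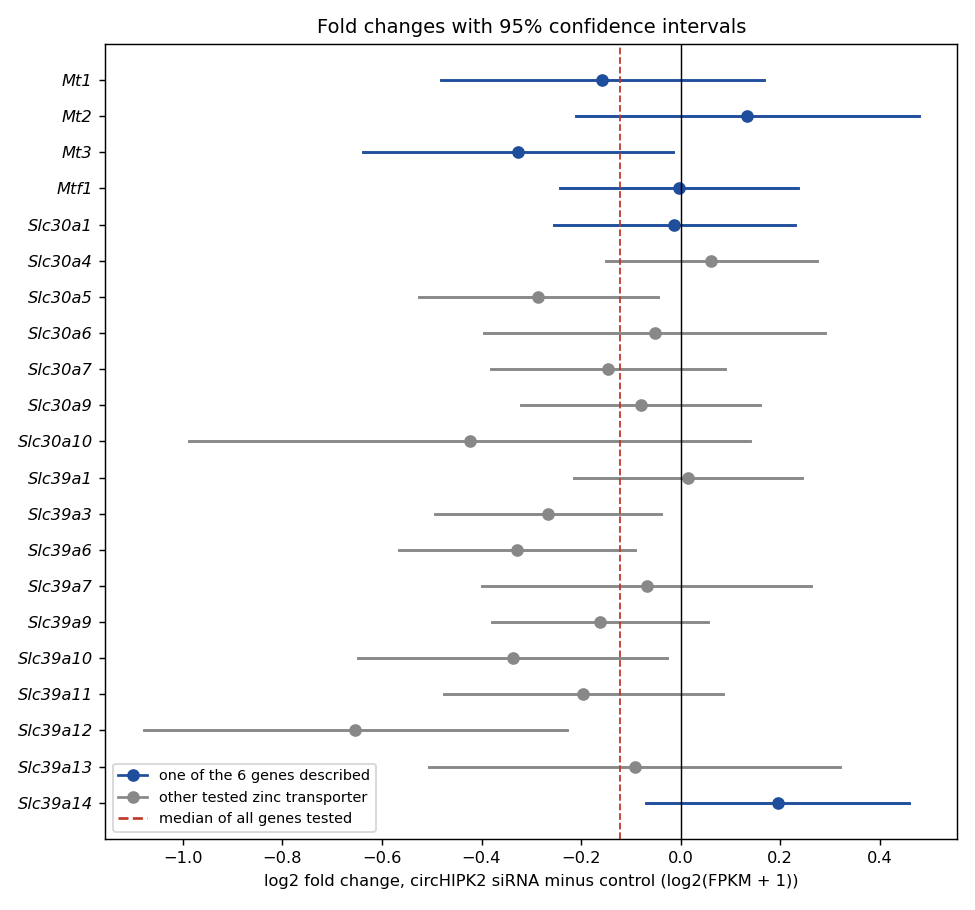
Log2 fold change (x axis, siRNA minus control, log2(FPKM + 1) scale) of the 6 genes (blue) and the other 15 tested zinc transporter genes (grey), with 95% confidence intervals from limma. The dashed line is the median of all genes, −0.12. The point for Slc39a12 lies lowest, at −0.65, and that for Slc39a14 highest, at 0.19. None passed after adjustment over all genes.

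Neighbouring metal pathways were described from lists. Beside the unadjusted counts below, 15.5% of all genes were lower and 1.83% higher at an unadjusted limma p below 0.05. Of 13 copper handling genes tested 0 were called (3 lower and 1 higher at an unadjusted limma p below 0.05), with a median log2 fold change of −0.17. Sod1, the copper and zinc superoxide dismutase and the most abundant, had 43.8 ± 1.44 and 33.4 ± 5.85 FPKM (SD, n = 3; log2 fold change −0.39). Cox17, a copper chaperone of mitochondria, had the largest change of that list, −0.70, with controls at 23.2, 6.92 and 22.0 FPKM, against siRNA libraries at 7.95, 11.2 and 8.43 FPKM. Control library 2 was the lowest of all 6 for Cox17. Of 14 iron handling genes tested 0 were called (2 lower unadjusted; median −0.08). Fth1, the ferritin heavy chain, had 689 ± 57.7 and 700 ± 94.3 FPKM.

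Lists of signals known to induce metallothioneins gave the following, where 15.5% of all genes were lower and 1.83% higher at an unadjusted limma p below 0.05. Of 11 metal and oxidative stress genes tested 0 were called (1 higher at an unadjusted limma p below 0.05, with a median of −0.07). Among these 11 genes 1 reached the filter only through the controls. Hmox1, the heme oxygenase induced by heavy metals, had 50.6 ± 4.15 and 55.4 ± 7.44 FPKM (SD, n = 3), and Gclc, of glutathione synthesis, had the largest change, 0.36. Of 9 glucocorticoid-induced genes tested 0 were called (1 higher and 1 lower unadjusted; median −0.15). Klf9, a glucocorticoid-induced transcription factor, had 16.0 ± 1.10 and 14.4 ± 0.717 FPKM, and Cdkn1c, a cell cycle inhibitor, had the largest change, −0.51. Of 6 genes of the response to IL-6 and STAT3 tested, 0 were called (4 higher unadjusted), with a median of 0.58. With the siRNA 4 lay entirely higher, against 2.65% of all genes. The list was chosen with earlier results known, and 1 of the 4 reached the filter only through its siRNA libraries. The median and counts of these 6 genes thus carry no weight. The other 9 genes of that list did not reach the filter and were not tested. Of these 5 lay entirely higher with the siRNA and 2 entirely lower, and for 2 the groups overlapped or all values were 0. The share of all genes below the filter that do so was not computed, so these counts carry no weight. Among the 5 higher ones Lcn2 had control and siRNA means of 0.00961 and 1.67 FPKM, and Steap4 0.0100 and 0.291 FPKM. The others were Bcl3 with 0.0416 and 0.232 FPKM, Il6ra with 0.274 and 0.424 FPKM, and Lif with 0.580 and 1.05 FPKM. The 2 lower ones were Hp, haptoglobin, with means of 1.01 and 0.0162 FPKM, and Fgg, a fibrinogen chain, with 0.218 and 0.00844 FPKM, both known as products of the liver. Stat3, the transcription factor itself, had 38.8 ± 10.0 and 40.4 ± 8.10 FPKM. Cebpd, a transcription factor of the acute phase response, had control values of 1.12, 1.26 and 1.19 FPKM, against 2.14, 6.74 and 3.04 FPKM under siRNA (log2 fold change 1.07; limma with BH, adjusted p = 0.174). The other 3 that lay entirely higher were Socs3, Osmr and Junb, of which Osmr reached the filter only through its siRNA libraries and Junb stands in the alphabetical end of the table.

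The metallothioneins were set beside the markers of the cell types that are known to express them. For the unadjusted counts given here, the shares over all genes were 15.5% lower and 1.83% higher. Astrocyte markers had control sums of 1264, 1509 and 923 FPKM, against 1428, 1506 and 942 FPKM under siRNA. Library 3 of each group was thus the lowest, while control library 2, which was highest for Mt1, was also highest here, just above siRNA library 2. Mt3 was instead highest in control library 3 (446 FPKM) and Mt2 in siRNA library 1 (103 FPKM). Of the 12 astrocyte markers 0 were called (1 lower at an unadjusted limma p below 0.05; median −0.13). Slc1a3, a glutamate transporter, had 304 ± 147 and 353 ± 128 FPKM (SD, n = 3). Gfap, the astrocyte filament protein, had control values of 76.0, 181 and 70.5 FPKM, against 262, 211 and 83.9 FPKM under siRNA, with control library 2 and siRNA libraries 1 and 2 high. The libraries high for Gfap include the 2 highest for Mt2. However, siRNA library 2, also high for Gfap, had less Mt2 than siRNA library 3, where Gfap was low (83.3 and 86.6 FPKM). In bulk libraries fewer cells of a type and less RNA per cell cannot be told apart, and the part of astrocyte-like cells in the metallothionein values was not tested. Of 11 neural stem cell markers tested 0 were called (3 lower unadjusted; median −0.11). Fabp7, a fatty acid binding protein of radial glia, had 1206 ± 307 and 755 ± 148 FPKM, and Hes5, a Notch target, had the largest change, −0.71 (limma with BH, adjusted p = 0.0666). Of 6 neuronal and 7 oligodendrocyte lineage markers tested 0 were called (3 and 2 lower unadjusted, with medians of −0.26 and −0.25). Among the 6 neuronal markers 1 reached the filter only through the controls. Gap43 and Olig1 were the most abundant members of these lists, at 107 ± 15.9 and 96.6 ± 9.54 FPKM and at 452 ± 25.5 and 398 ± 53.7 FPKM. Tubb3 and Pdgfra had the largest changes, −0.49 and −0.66.

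**Figure D3:**
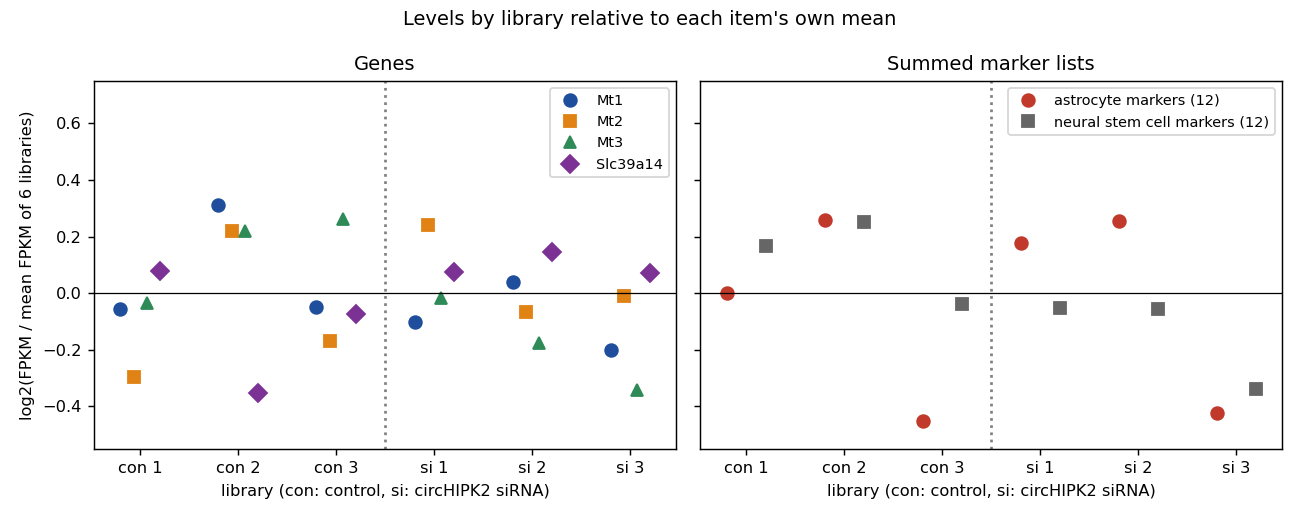
Log2 of each library's FPKM over the mean of the 6 libraries (y axis) by library (x axis), for Mt1, Mt2, Mt3 and Slc39a14 (left) and for the summed markers of astrocytes and neural stem cells (right). Control library 2 is high for Mt1, Mt2 and Mt3 (0.31, 0.22 and 0.22) and low for Slc39a14 (−0.35). siRNA library 3 is low for Mt1 and Mt3 (−0.20 and −0.34) and for both marker lists (−0.42 and −0.34). Control library 3 is the lowest for the astrocyte markers (−0.45) and the highest for Mt3 (0.26).

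The 3 metallothioneins did not share 1 pattern over the 6 libraries. The Pearson correlation of log2(FPKM + 1) over the 6 libraries, given as a description, was 0.36 between Mt1 and Mt2, 0.60 between Mt1 and Mt3 and 0.10 between Mt2 and Mt3. It was −0.79 between Mt1 and Slc39a14 and −0.02 between Mt1 and Mtf1. The 6 points fall into the 2 groups, and each library's scaling and depth enter both genes of a pair. Among 8107 candidate genes with a mean of at least 5 FPKM, those most like Mt1 were Tob2, Zfp521 and Nicn1 (r from 0.98 to 0.99). Tob2 had 11.7 FPKM in control library 2 and between 5.27 and 7.27 FPKM in the other 5. Those most like Mt2 were Cebpg, Txnip and Pkn2 (r from 0.95 to 0.98). Cebpg had 9.01 FPKM in control library 2 and 8.58 FPKM in siRNA library 1, against 4.79 to 6.37 FPKM elsewhere. Those most like Mt3 were Slitrk2, Abhd13 and Ilf2 (r of 0.99 each). Slitrk2 had control values of 10.7, 12.3 and 12.7 FPKM, against 11.0, 10.3 and 9.14 FPKM under siRNA. The genes named as most alike were the highest of 8107 over only 6 libraries, where such correlations can arise without a relation.

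On values as deposited, on the log2(FPKM + 1) scale, the 95% confidence intervals of the 6 genes reached down to a fall of 1.56-fold (Mt3) and up to a rise of 1.39-fold (Mt2). Other scalings moved these bounds, as with the ribosomal RNA locus entries removed the log2 fold change was 0.40 for Slc39a14 (SE 0.13) and 0.34 for Mt2 (SE 0.15). That setting also put the median of all genes at 0.06, against −0.12 on values as deposited. Fragment numbers could only be estimated, from the depth and an assumed length. The lowest library of each gene held about 158 fragments for Slc30a1 and between about 681 and 8150 for the others, taking the longest coding transcript and 1 row per gene, which for Slc30a1 is in doubt. Those numbers would give a counting error of 7.95% for Slc30a1 and between 1.11% and 3.83% for the others. The standard deviation between replicates was between 2.92% and 19.2% of the mean, lowest for Slc39a14 with the siRNA and highest for Mt2 in the controls. For Slc30a1 it was 5.89% in the controls and 5.81% with the siRNA, below the estimated counting error of its lowest library, and for Slc39a14 with the siRNA it was likewise below (2.92% against 3.39%).

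**Figure D4:**
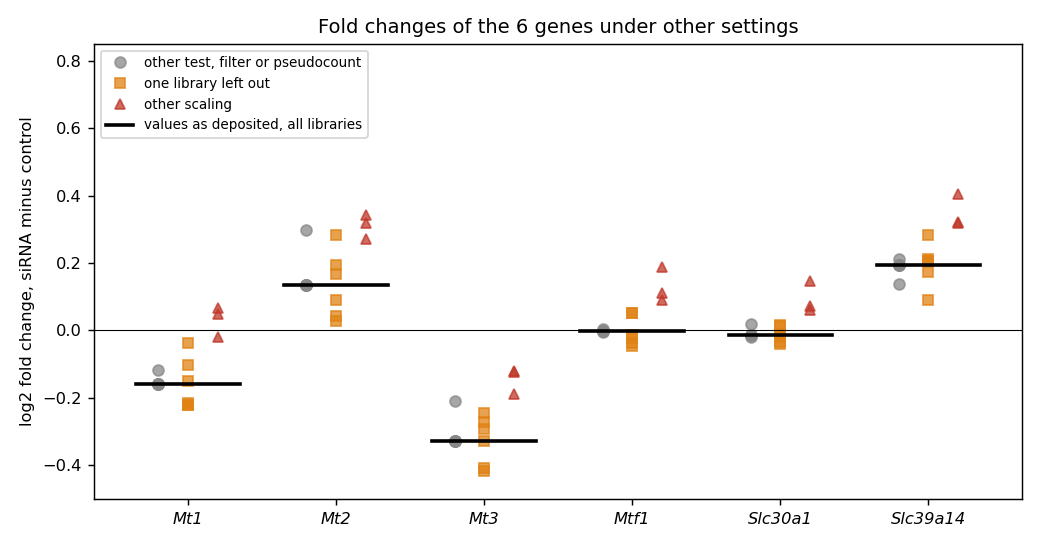
Log2 fold change of the 6 genes (y axis, siRNA minus control) under other tests, filters and pseudocounts (grey), with 1 library left out (orange) and under other scalings (red), beside the values as deposited (black bars). Points for Mt2 and Slc39a14 stay above 0 and those for Mt3 below 0, while those for Mt1, Mtf1 and Slc30a1 lie on both sides.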

How the data were processed

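FPKM values of 54884 gene entries in 6 libraries were used as the authors deposited them. The submitters' processing notes name the tools HISAT, StringTie and edgeR and the mm9 build. The sources used here do not give versions, the gene annotation, the part of each tool, or whether strand and the molecular identifiers of the adapters were used. Entries carry symbols only, so coordinates given are those of RefSeq promoters (GRCm38.p6) and not of the table.

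Values were taken as log2(FPKM + 1) for those 13702 entries whose mean reached 1 FPKM. Groups (3 control, 3 siRNA) were fitted in R 4.3.3 by limma 3.58.1 (mean-variance trend, two-sided, no block) and Benjamini-Hochberg adjustment over all entries tested, with a gene called at an adjusted p below 0.05. Single genes also had an exact permutation test (scipy 1.17.1). Of the steps, only the limma fit was tested on simulated data. Depth was read from FPKM steps of genes with 1 transcript of at least 500 nt. Between 39.6% and 43.6% of low values lay within 0.05 steps of a whole number of fragments, against 10% by chance, too few to recover counts. Coding sequences were aligned with Biopython 1.88.

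The 6 genes, the lists and the tests were chosen with earlier results of these data known. Any gene of the Slc30 and Slc39 families could be named. From each other list the called members were named, or else the most abundant tested member and that with the largest change. Cell type markers were named likewise, except that Alb alone stands for the 10 liver markers. For 1 list the latter is not reported here. For the metallothioneins the 3 genes most alike by Pearson correlation were named, leaving out Gm, Rik and clone names. Gm45774 and Mt4 were named for their position, Hipk2 as the host gene, and Tob2, Cebpg and Slitrk2 as the most alike. Socs3, Osmr, Junb, Lcn2, Steap4, Bcl3, Il6ra, Lif, Hp and Fgg were chosen after their values were seen. Alternatives were a pseudocount of 0.1, no filter, a minimum mean of 5 FPKM, 3 other scalings, limma without trend, limma with library weights, a block for the replicate number, and each library left out.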

Additional observations from a re-analysis of the deposited data

How the results depend on the processing

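None of the 6 genes was called under any of the alternatives run, 15 each for Mt1, Mt2, Mt3 and Slc39a14 and 14 each for Mtf1 and Slc30a1, which fall below a minimum mean of 5 FPKM (limma with BH, adjusted p from 0.188 to 0.994). Mt2 and Slc39a14 stayed above 0 and Mt3 below 0. The other 3 turned sign, and the cause was not tested. With quantile normalization the log2 fold changes of Mt1, Mtf1 and Slc30a1 were 0.065, 0.090 and 0.061. With the ribosomal RNA locus entries removed and columns rescaled they were 0.049, 0.19 and 0.15, where the median of all genes was 0.064. With median-of-ratios scaling Mtf1 was at 0.11 and Slc30a1 at 0.073, and with library weights they were at 0.0041 and 0.018. With 1 library left out Mtf1 ranged from −0.046 to 0.052 and Slc30a1 from −0.041 to 0.015, Mt1 from −0.22 to −0.04, Mt2 from 0.03 to 0.28, Mt3 from −0.42 to −0.24 and Slc39a14 from 0.09 to 0.28. Control library 2 moved Mt1, Mt2 and Slc39a14 most: without it they were at −0.04, 0.28 and 0.09.

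Over all genes 16 were called higher and 19 lower. With 1 library left out the counts ranged from 2 to 15 and from 6 to 23, with the lowest of both without siRNA library 3. Without control library 2 or 3 there were 10 and 8 higher, and without control library 1 12 lower. With no filter 7 were higher, with a minimum mean of 5 FPKM 8 lower, with quantile normalization 4 higher and 12 lower, and with library weights 55 higher and 265 lower. With the replicate number as a block 23 were higher and 23 lower. Deviations from the group means of same-numbered libraries correlated at 0.05, 0.02 and 0.13, and 3 of the 6 libraries correlated best with their own number. The labels do not say whether same-numbered libraries were prepared together, and with so few libraries these values cannot decide it. The block changed no call of the 6 genes: Mt3 had an adjusted p of 0.332, Slc39a14 0.502, Mt1 0.563, Mt2 0.696, Slc30a1 0.971 and Mtf1 0.993 (limma, BH).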
